A study of Mus musculus with 12 samples.

Results

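Most genes of a hybrid cell are transcribed from both parental chromosomes, and the share of reads that carries one parent's variants, the allelic balance, is usually stable for a given gene. The genes described here are autosomal genes whose balance moved during 7 days of differentiation of mouse embryonic stem (ES) cells. They were chosen from the measured values themselves: at least 50 counts assigned to genome 1 or genome 2 in each of the 12 libraries, and a mean genome 2 share that moved by at least 20 percentage points between day 0 and day 7 in the same direction in wild type and in knockout-labelled cells. The rule found 63 genes among the 7191 autosomal genes with that many counts, or 0.876% of them, out of 50957 autosomal genes in the table. In 30 genes the genome 2 share was higher at day 7 and in 33 it was lower. Because the day 0 to day 7 shift chose the genes, it is described below without a test, and so are the level and isoform differences between the same days.

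The cells were female C57BL6/CAST hybrid ES cells, a cross of a laboratory mouse strain with a strain of the subspecies castaneus, whose many sequence differences allow reads to be assigned to a parent. Wild type cells and cells labelled SIRT7-KO, in which the gene of the nuclear deacetylase SIRT7 was targeted, were each profiled by poly(A) RNA sequencing at day 0, with the cytokine LIF that holds ES cells undifferentiated, and at day 7 after LIF withdrawal, with 3 libraries per group and 12 in all. Nothing in the labels says whether the 3 libraries of a group came from separate cultures or clones, so p-values measure only the spread between these libraries. The labels do not name the strain behind genome 1 or genome 2, and these names are kept. Their treatment field gives LIF for some replicates and none for others on either day; groups follow genotype and day.

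The libraries held 25190483 to 69079368 counts, of which 29.7% to 32.0% were assigned to a parental genome. Sirt7 itself had 296 to 341 counts per library in wild type and 563 to 702 in knockout-labelled cells at day 0, and 394 to 711 against 594 to 969 at day 7. The targeted gene was therefore higher in the libraries labelled knockout. The position of the targeted change is not given in the sources used here, and the genotype in every comparison below rests on the label. Markers of naive ES cells summed to 4769 to 5365 CPM (counts scaled to a library total of 1000000) at day 0 and 256 to 280 at day 7, with 9 of 10 lower. Markers of feeder fibroblasts, which may be carried in ES cell cultures, summed to 80.4 to 91.1 CPM at day 0 and 1605 to 2022 at day 7, with 13 of 14 higher at day 7 in both genotypes and none at 0, and several of them are also expressed by mesoderm. All 9 mesoderm markers were higher too, from sums of 6.16 to 10.3 CPM to sums of 2098 to 2493. The part of changing cell types in the allelic shifts was not tested, and in these bulk samples a different mix of cells and a different output per cell cannot be told apart.

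Allelic balance is set by sequence differences between the parental chromosomes in promoters and enhancers, by parent-of-origin imprinting, by random choice of a chromosome in single cells, and by copy number. A gene may also appear to shift when the isoforms or overlapping genes that carry the informative variants are replaced by others. These routes are given as background.

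The parental genomes were not represented evenly along the autosomes. At day 0 in wild type cells, 3527 of the 7191 measured genes had a genome 2 share under 10%, 466 had one over 90%, and 3198 lay in between. Each of the 63 genes was therefore placed by the measured genes within 1 Mb of it, a grouping that was made after the data had been seen. In 35 of the 63, at least 50% of 3 or more neighbours had a share of 20% to 80%, so that both genomes were read in the stretch. In 17 the neighbours' median was under 20%, so that the stretch was read mostly as genome 1, and in 6 it was over 80%, mostly genome 2. The last 5 had mixed or fewer than 3 neighbours. All measured genes divided into 2307, 3742 and 234 genes for the same 3 settings, so that the shifting genes made up 1.52%, 0.454% and 2.56% of them. These percentages include genes read almost wholly from 1 genome. Among genes with a wild type day 0 share of their own of 20% to 80%, the shifting genes were 26 of 1913, 12 of 394 and 5 of 93. The neighbours' median shift, taken over the 63 genes, was 0 in both genotypes, and for no gene had the neighbours' median moved by 10 points or more in both.

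Across the 63 genes the median size of the shift was 28.7 points in wild type and 26.9 points in knockout-labelled cells, against 5.24 and 4.97 points for the 3198 genes with an intermediate day 0 share. The median genome 2 share of the 30 upward genes went from 27.5% to 54.1% in wild type and from 25.6% to 53.7% in knockout-labelled cells. That of the 33 downward genes went from 62.0% to 31.7% and from 64.7% to 34.8%. The mean share crossed 50% in both genotypes in 30 genes, and 31 genes lay nearer to 50% at day 7 than at day 0 in both genotypes. The day 0 and day 7 libraries did not overlap in both genotypes, with the same direction, in 45 of the 63 genes, beside 6.19% of all measured genes and 10.8% of those with an intermediate share. The edgeR quasi-likelihood test of allelic balance between days passed an adjusted p of 0.05 in 25 of the 63 in wild type, beside 3.67% of all genes, and in 20 in knockout-labelled cells, beside 2.99%. Nothing is read from these counts, since the shift chose the genes. Of the 45, 28 were among the 35 genes of stretches with both genomes and 9 among the 17 genes of stretches read mostly as genome 1. Only 30 of the 63 met the rule in each of the 12 sets of libraries that leave out 1 library; 22 of these 30 lay in stretches with both genomes and 2 in stretches read mostly as genome 1. The smallest allele-resolved count of any of the genes in a library was 52, and 28 genes had fewer than 100 in some library.

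**Figure D1:**
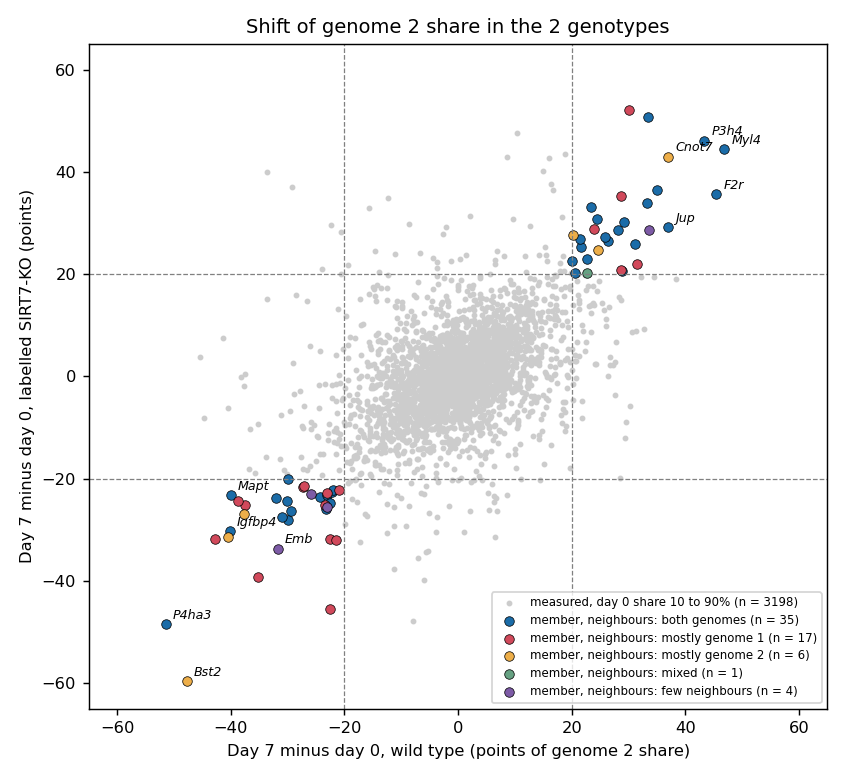
Shift of the genome 2 share from day 0 to day 7 in wild type (x axis, percentage points) against libraries labelled SIRT7-KO (y axis), each the difference of 2 means of 3 libraries. Grey points are the 3198 measured autosomal genes with a day 0 share of 10% to 90%, coloured points the 63 shifting genes by the genome their neighbours are read from, and dashed lines the limit of 20 points: all coloured points lie in the upper right or lower left corner because the rule put them there.

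F2r encodes the thrombin receptor PAR1 and was among the 4 largest upward shifts. F2r (ENSMUSG00000048376, chr13:95601803-95618487, minus strand, GRCm38) had a genome 2 share of 28.6%, 22.9% and 12% in the wild type day 0 libraries and 65.5%, 63.0% and 71.2% at day 7. In knockout-labelled cells the shares were 25.9%, 31.5% and 29.7%, then 63.8%, 65.5% and 64.7%. The days did not overlap in either genotype. All allele-resolved counts of F2r were assigned to 1 annotated transcript with 1 start; isoforms outside the annotation are not seen by this counting. Both alleles were higher at day 7, but by different amounts: genome 1 went from 2.70 ± 0.454 to 25.8 ± 6.51 CPM (SD, n = 3) and genome 2 from 0.726 ± 0.299 to 50.7 ± 6.39 CPM in wild type. The whole gene went from 16.5 to 249 CPM in wild type and from 21.6 to 258 CPM in knockout-labelled cells.

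Igfbp4, a secreted binding protein of insulin-like growth factors, was the counterpart among the downward genes. Igfbp4 (chr11:99041244-99054392, plus strand) had a genome 2 share of 67.2%, 70.2% and 44.6% in wild type at day 0 and 17.5%, 15.1% and 28.9% at day 7. In knockout-labelled cells it was 49.2%, 50.8% and 51.5%, then 18.2%, 19.3% and 23.1%. The days were again apart in both genotypes, although the 6 day 0 values rest on only 63 to 131 allele-resolved counts each. Its level went from 5.15 to 317 CPM in wild type, a log2 difference of 5.93 ± 0.30 (SE) and the highest of the 63 genes, and genome 1 supplied most of it: 72.2 CPM at day 7 against 19.3 CPM from genome 2.

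The sequences before the start sites of F2r, Igfbp4 and Itga3 are shown because the first 2 have 1 listed start each. The third has a second site that was read only at day 7. The sequences are the 250 bases before each start in the RefSeq table of GRCm38.p6, the reference strain, 5′ to 3′ on the gene's strand. Variants of the castaneus strain are not shown. The windows are chr13:95618467-95618716 (F2r, minus strand), chr11:99040994-99041243 (Igfbp4, plus strand), and chr11:95076715-95076964 and chr11:95069199-95069448 (starts 1 and 2 of Itga3, minus strand). Capitals mark 4 motifs on either strand: the GC box letters GGGCGG, the TATA box letters TATAAA, the box CCAAT and the GATA factor letters AGATAA.
F2r: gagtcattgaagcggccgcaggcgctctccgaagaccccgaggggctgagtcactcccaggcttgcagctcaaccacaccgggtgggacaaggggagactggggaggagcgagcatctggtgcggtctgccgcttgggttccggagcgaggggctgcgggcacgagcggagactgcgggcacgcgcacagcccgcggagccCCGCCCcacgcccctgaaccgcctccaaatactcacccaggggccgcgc
Igfbp4: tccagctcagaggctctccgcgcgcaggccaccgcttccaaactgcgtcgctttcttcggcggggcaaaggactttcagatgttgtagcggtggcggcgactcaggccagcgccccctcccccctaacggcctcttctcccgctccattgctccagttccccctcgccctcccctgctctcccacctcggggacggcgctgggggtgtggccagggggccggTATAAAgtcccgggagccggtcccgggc
Itga3 start 1: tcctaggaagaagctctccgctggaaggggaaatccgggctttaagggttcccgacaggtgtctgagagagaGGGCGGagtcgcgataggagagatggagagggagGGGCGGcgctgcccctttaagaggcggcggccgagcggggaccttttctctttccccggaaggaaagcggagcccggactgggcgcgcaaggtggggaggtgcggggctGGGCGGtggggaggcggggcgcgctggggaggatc
Itga3 start 2: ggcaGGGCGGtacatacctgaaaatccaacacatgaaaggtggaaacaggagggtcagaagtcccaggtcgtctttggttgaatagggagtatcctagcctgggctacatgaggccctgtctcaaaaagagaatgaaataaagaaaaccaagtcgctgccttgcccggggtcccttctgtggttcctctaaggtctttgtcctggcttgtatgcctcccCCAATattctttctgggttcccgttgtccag
The GC box letters stood 1 time before F2r (on the other strand), 3 times before the first start of Itga3 and 1 time before its second. Igfbp4 had 1 TATAAA and the second start of Itga3 1 CCAAT. None of these windows held AGATAA. The table had promoters for 47 of the 63 genes, 63 windows in all. GGGCGG was in 65.1% of these windows, beside 61.7% of the 6973 windows of measured genes and 32.7% of all 32851. TATAAA was in 4.76% against 5.25% and 12.4%, CCAAT in 34.9% against 35.6% and 33.8%, and AGATAA in 4.76% against 4.98% and 9.99%. The median GC content was 64.4% against 60.8% in measured genes and 52.4% in all windows.

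Jup, P3h4 and Fkbp10 stood side by side on chromosome 11 and moved in the same direction. Jup encodes plakoglobin of desmosomes and adherens junctions, P3h4 a member of the endoplasmic reticulum complex that modifies collagen, and Fkbp10 a prolyl isomerase of the same compartment that helps to fold collagen. Jup (chr11:100368958-100397763) had a genome 2 share of 17.3%, 8.87% and 8.84% in wild type at day 0 and 48.6%, 45.9% and 51.5% at day 7. In knockout-labelled cells it was 15.5%, 14.7% and 17.6%, then 43.1%, 49.6% and 42.7%. P3h4 (chr11:100408456-100414836) began lower still, at 1.89%, 8.23% and 7.62% in wild type and 0%, 0% and 12.1% in knockout-labelled cells. The counts of 0 among 139 and 84 allele-resolved counts allow shares of up to 2.16% and 3.57%; such limits cover counting error only. At day 7 its shares were 51.2%, 48.0% and 48.5% in wild type and 47.6%, 49.3% and 53.4% in knockout-labelled cells. Fkbp10 (chr11:100415697-100424824) had 20.6%, 23.9% and 14.3% in wild type at day 0, then 54.4%, 52.2% and 52.1%, and 16.7%, 18.9% and 9.46%, then 48.0%, 48.5% and 50.3% in knockout-labelled cells. All 3 genes thus went from a large majority of genome 1 to near even shares in every day 7 library.

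The alleles of these neighbours differed in level. In Jup, genome 1 was read at 42.7 ± 2.82 CPM at day 0 and 47.7 ± 5.28 CPM at day 7 in wild type, while genome 2 went from 5.71 ± 2.64 to 45.2 ± 5.38 CPM (SD, n = 3). Genome 2 of Fkbp10 went from 2.72 to 29.5 CPM and genome 1 from 10.9 to 26.3 CPM. Genome 2 of P3h4 went from 0.221 to 6.60 CPM and genome 1 from 3.64 to 6.81 CPM. P3h4 and Jup lie 10693 bp apart and P3h4 and Fkbp10 861 bp apart. Nt5c3b, a nucleotidase gene that overlaps the end of Fkbp10 on the other strand, moved the opposite way, from 60.0% to 33.9% in wild type and from 53.8% to 36.2% in knockout-labelled cells, and missed the limit of 20 points in the latter. The notes on processing do not say whether reads were counted by strand, so reads in the overlap of Fkbp10 and Nt5c3b cannot be told apart. Before the group, Gm10039 moved by -0.81 points in wild type and 0.49 in knockout-labelled cells, and Eif1 by 0.49 and 11.5 points. Beyond it, Dnajc7 moved by 1.46 and -0.49 points and Acly by -0.72 and 9.87 points; Eif1 and Acly thus moved the same way as the 3 genes in knockout-labelled cells, by fewer points. Cnp, which overlaps Dnajc7 on the other strand, moved by -38.2 points in wild type and by -0.069 points in knockout-labelled cells. No gene on either side of the 3 moved up by 20 points.

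**Figure D2:**
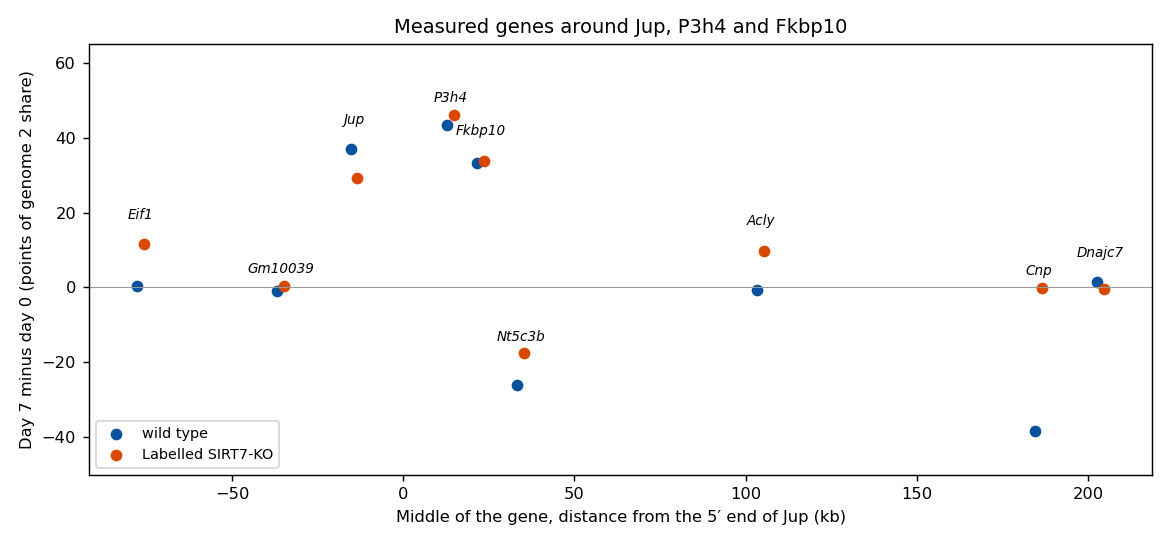
Shift of the genome 2 share (y axis, percentage points, day 7 minus day 0) of the measured genes around Jup, by the distance of each gene's middle from the 5′ end of Jup in kb (x axis), in wild type and in libraries labelled SIRT7-KO. Jup, P3h4 and Fkbp10 lie between 29.2 and 46.1 points, Nt5c3b lies below 0 in both genotypes and Cnp in wild type, Gm10039 and Dnajc7 lie near 0, and Eif1 and Acly lie near 0 in wild type and at 11.5 and 9.87 points in libraries labelled SIRT7-KO.

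Other close pairs did not share a direction in every case. Myl4, an embryonic and atrial myosin light chain, moved up and Mapt, the microtubule protein tau, moved down, 218573 bp apart on chromosome 11. Mapt had 80.7%, 87.4% and 89.9% genome 2 at day 0 and 39.0%, 61.4% and 37.5% at day 7 in wild type, and 82.8%, 83.5% and 73.6%, then 62.4%, 55.3% and 52.3% in knockout-labelled cells, while its level went from 56.1 to 5.74 CPM in wild type. P4ha3, a catalytic subunit of collagen prolyl 4-hydroxylase, and Ucp2, a carrier of the inner mitochondrial membrane, lie 173638 bp apart on chromosome 7 and both moved down. Chromosome 11 held 11 of the 63 genes and chromosome 7 held 8. These chromosomes also had the most measured genes, 637 and 597, so that the shifting genes made up 1.73% and 1.34% of them. The share was 0.876% over all autosomes, 1.49% on chromosome 13, and 0% on chromosomes 10, 16 and 18. Whether the genes gather on some chromosomes was not tested.

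P4ha3 (chr7:100285520-100319699) showed the largest downward shift in wild type. All of its allele-resolved counts were genome 2 in the 3 wild type day 0 libraries, 100%, 100% and 100%, where the counts of 83, 120 and 65 allow a genome 1 share of up to 3.61%, 2.50% and 4.62%. In knockout-labelled cells the day 0 shares were 100%, 92.6% and 98.0%. At day 7 they were 50.8%, 44.2% and 50.6% in wild type and 58.0%, 38.8% and 48.5% in knockout-labelled cells. Genome 1 was at 0 CPM at day 0 and 1.42 CPM at day 7 in wild type while genome 2 went from 2.80 to 1.35 CPM, and the whole gene from 22.5 to 4.93 CPM. The allele-resolved counts of P4ha3 came from transcripts P4ha3-202 and P4ha3-203. The latter alone had 100% genome 2 at day 0 and 48.6% at day 7 in wild type. Transcript usage differed between days too: 47.3 points of the gene's counts in wild type and 58.3 in knockout-labelled cells passed between transcripts. The part of its allele-split counts assigned to a genome was 28.1% at day 0 and 56.9% at day 7 in wild type.

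Ucp2 (chr7:100493337-100502020), one of the genes picked for description after their values were seen, had 919 to 10072 allele-resolved counts per library. Its genome 2 share was 44.4%, 47.6% and 43.7% at day 0 and 24.5%, 23.3% and 21.1% at day 7 in wild type. In knockout-labelled cells it was 48.6%, 46.9% and 49.3%, then 25.8%, 26.5% and 24.3%. The libraries of a group differed by only a few points and the days were far apart. Both alleles were lower at day 7, genome 1 from 134 to 28.4 CPM and genome 2 from 111 to 8.51 CPM in wild type. Emb, embigin, a cell adhesion protein that accompanies monocarboxylate transporters, had no measured neighbour within 1 Mb. Its share was 79.3%, 80.9% and 79.2% at day 0 and 48.2%, 46.5% and 49.5% at day 7 in wild type, and 74.2%, 77.5% and 79.7%, then 41.3%, 44.3% and 44.6% in knockout-labelled cells. Its level differed little, 114 CPM at day 0 and 142 CPM at day 7 in wild type. Genome 1 of Emb went from 12.8 to 47.0 CPM while genome 2 went from 50.6 to 43.5 CPM. In knockout-labelled cells genome 1 went from 15.1 to 42.0 CPM and genome 2 from 51.2 to 32.3 CPM.

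Ugdh, which makes the UDP-glucuronic acid used for hyaluronan and other glycosaminoglycans, had a genome 2 share of 77.5%, 72.6% and 75.5% at day 0 and 46.9%, 46.7% and 43.8% at day 7 in wild type. In knockout-labelled cells it was 74.6%, 72.1% and 76.7%, then 47.1%, 46.0% and 51.3%. Genome 1 of Ugdh went from 2.80 to 29.7 CPM and genome 2 from 8.61 to 25.2 CPM in wild type. Slco4a1, an organic anion transporter, went from 60.0%, 51.1% and 46.1% to 20.5%, 19.5% and 21% in wild type without a matching level difference, 12.1 CPM at day 0 and 13.5 CPM at day 7.

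**Figure D3:**
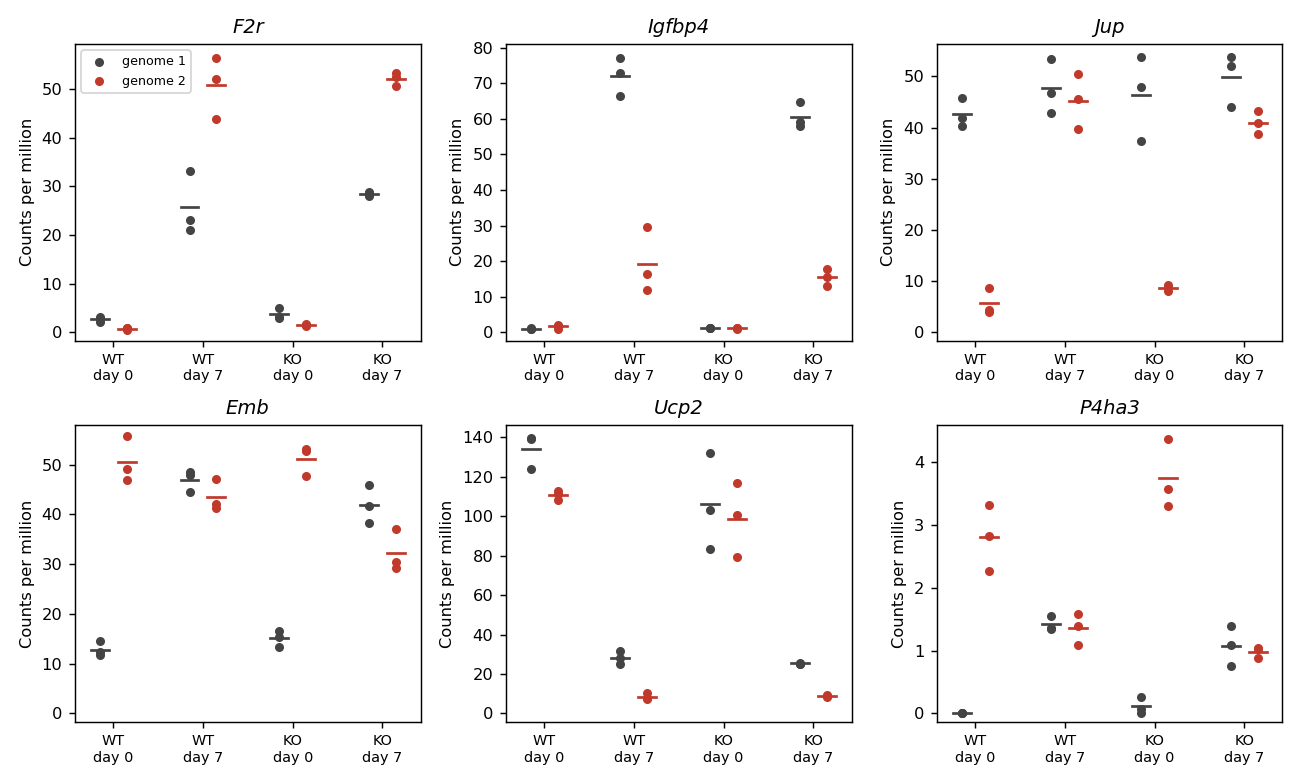
CPM (y axis) assigned to genome 1 (grey) and genome 2 (red) in each library of the 4 groups, with 1 dot per library and a bar at the mean of 3, for F2r, Igfbp4, Jup, Emb, Ucp2 and P4ha3. Both alleles are higher at day 7 in F2r and Igfbp4 and lower in Ucp2, while in Jup genome 2 holds most of the difference, and in Emb the mean of genome 1 is higher and that of genome 2 lower at day 7.

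Across the 63 genes the alleles took opposite directions in both genotypes in 33, were both higher at day 7 in 16 and both lower in 6. The remaining 8 differed in class between the genotypes. A direction here is the sign of a difference of group means, with no limit on its size. Some alleles differed by less than the SD, as genome 1 of Bst2 in wild type, 1.57 ± 0.615 and 1.72 ± 0.313 CPM. The shares of these classes among all measured genes were not computed. Of the 16 genes with both alleles higher, 11 were upward and 5 downward genes. The level of the whole gene passed an adjusted p of 0.05 between days in 48 genes in wild type (edgeR quasi-likelihood test with Benjamini-Hochberg adjustment, 33 higher), beside 65.1% of all genes, and in 44 in knockout-labelled cells (30 higher), beside 63.4%. The higher calls stand beside 32.9% and 31.1% of all genes called higher. These are the days the rule compared, so nothing is read from them. The log2 difference in level ran from -3.29 to 5.93 in wild type and lay within 0.5 of 0 in both genotypes in 14 genes. It was above 1 in both in 20 genes and below -1 in both in 7.

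Itga3, the integrin subunit alpha 3 of laminin receptors, added a second start. Its genome 2 share was 28.8%, 18.5% and 19.1% at day 0 and 49.2%, 58.8% and 46.0% at day 7 in wild type, and 21.1%, 21.5% and 27.2%, then 62.7%, 47.6% and 50.3% in knockout-labelled cells. The transcript Itga3-202, from the second start printed above, made up 0% of the gene's counts at day 0 and 13.3% and 19.5% at day 7 in the 2 genotypes. It carried only 12 of the allele-resolved counts, against 19992 on the main transcript Itga3-201. Itga3-201 alone went from 22.9% to 50.6% genome 2 in wild type and from 23.4% to 58.3% in knockout-labelled cells. The main transcript thus held a shift of its own.

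For all 63 genes the shift was divided, from the allele-split transcript counts, into a part within transcripts (each transcript's own share moved) and a part from a different makeup of transcripts. The part within transcripts was the larger in both genotypes in 53 genes, that from the makeup in 5, and 5 differed between genotypes. When transcripts with under 10 allele-resolved counts in some library were pooled, these were 54 and 3 genes. Pooling turned Cfl1 and Myl4 in both genotypes and Radil in wild type to the part within transcripts, and Pxn and Cnot7 in knockout-labelled cells to the part from the makeup. Without pooling, the part within transcripts was the larger in both genotypes in 33 of 35 genes of stretches with both genomes. The same held in 6 of 6 genes of stretches read mostly as genome 2 and in 9 of 17 of those read mostly as genome 1. Summed over the transcripts of a gene, 20 points or more of its counts passed from some transcripts to others in both genotypes in 16 of the 63 genes, or 25.4%, against 16.8% of all measured genes. The most used transcript was another one at day 7 in 3 genes, Myl4, Radil and Lancl2, or 4.76% against 4.99% of all. Transcript usage passed the test between days in 12 of 50 genes in wild type, beside 18.7% of all genes, and in 11 of 50 in knockout-labelled cells, beside 13.9%, and nothing is read from these counts of the same days. Transcript counts are StringTie estimates, and short or overlapping transcripts share reads.

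**Figure D4:**
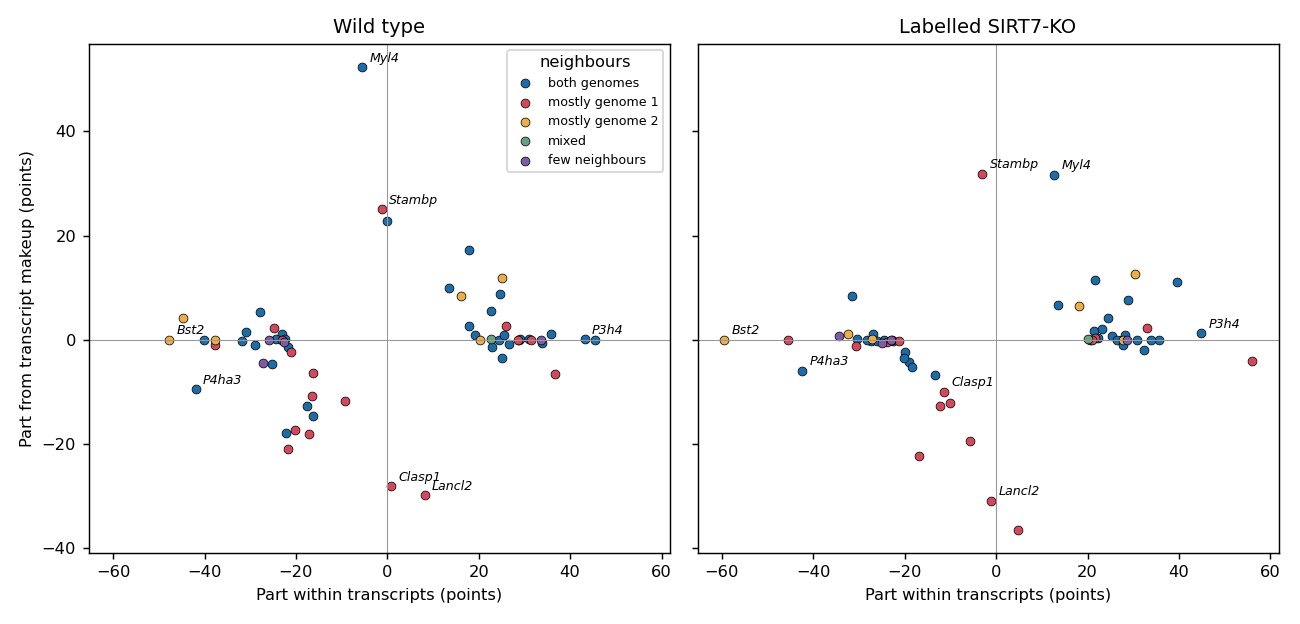
Part of each gene's shift found within transcripts (x axis, percentage points) against the part that comes from a different makeup of transcripts (y axis), in wild type and in libraries labelled SIRT7-KO, with 1 dot for each of the 63 genes coloured by its neighbours. Most dots lie along the x axis, while Myl4, Stambp, Lancl2 and, in wild type, Clasp1 lie along the y axis.

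Myl4 took most of its shift from transcript makeup where each transcript was kept apart. Its genome 2 share was 46.5%, 38.2% and 59.1% at day 0 and 94.9%, 89.5% and 100% at day 7 in wild type, and 48.0%, 48.9% and 49.7%, then 91.7%, 92.2% and 95.8% in knockout-labelled cells. Myl4-203 made up 67.1% of its counts at day 0 and 3.31% at day 7 in wild type, and Myl4-202, which has another start, 0% and 66.6%. Myl4-203 had a share of 27.6% genome 2 at day 0 and Myl4-202 one of 96.2% at day 7. Of the shift in wild type, 52.3 points came from makeup and -5.44 points from within transcripts; in knockout-labelled cells the parts were 31.7 and 12.7 points. Every transcript of Myl4 had under 10 allele-resolved counts in some library, so that pooling such transcripts leaves 1 pool and a makeup part of 0. Gm11663 overlaps Myl4 on the other strand.

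In several genes of stretches read mostly as genome 1, the genome 2 counts sat on some transcripts and not on others. Fiz1, a zinc finger protein, had 0% in Fiz1-208 and Fiz1-201 and 99.9% in Fiz1-202 at day 0 in wild type. Clasp1, a microtubule plus-end protein, had 0% in its main coding transcript Clasp1-218 and 82.8% at day 0 in the retained-intron form Clasp1-207. Stambp, a deubiquitinase, had 100% in Stambp-201 in all groups and 0.6% to 7.1% in Stambp-204. The part from transcript makeup was the larger in both genotypes in Fiz1, Stambp and Lancl2, with or without pooling, and in Cfl1 and Myl4 only without it. In Fiz1 the 2 parts were close in wild type, -18.2 points from makeup and -17.1 points within transcripts. In knockout-labelled cells they were -22.4 and -16.9 points. Cfl1, cofilin, met the rule through 1 library per genotype: its genome 2 share was 0%, 63.0% and 0% at day 0 in wild type and 0%, 66.8% and 0% in knockout-labelled cells, then 0% in all 6 day 7 libraries. Without replicate 2 of day 0 its shift was 0 in either genotype.

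Other genes of such stretches did not divide by transcript. Zbtb45, a zinc finger gene that overlaps Trim28 on the other strand, was at 0.135%, 0.18% and 0.13% at day 0 and 31.2%, 27% and 28.1% at day 7 in wild type. In knockout-labelled cells it was at 0.162%, 0.132% and 0.323%, then 34.3%, 28.7% and 0.317%, so that 1 day 7 library stayed at the day 0 value. Ano6, a lipid scramblase, went from 7.05%, 4.72% and 4.93% to 38.4%, 25.5% and 47.5% in wild type. Vti1a, a SNARE protein of endosome and Golgi transport, went from 15.5%, 10.7% and 25% to 52.4%, 35.4% and 49.6%. Of the 17 genes, 2 met the rule in each set that leaves out 1 library, Vti1a among them.

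The genes of stretches read mostly as genome 2 included Bst2, tetherin, an interferon-induced protein that holds viruses at the cell surface, and Cnot7, a deadenylase of the CCR4-NOT complex. Bst2 had 74.0%, 87.5% and 67.6% genome 2 at day 0 and 26.2%, 17.6% and 42.0% at day 7 in wild type, and 53.8%, 82.5% and 79.5%, then 13.8%, 23.5% and 0% in knockout-labelled cells. Its genome 2 level went from 5.17 to 0.729 CPM and its genome 1 level from 1.57 to 1.72 CPM in wild type. Cnot7 went from 68.9%, 37.0% and 76.4% to 97.2%, 98.9% and 97.0% in wild type and from 44.4%, 46.7% and 27.4% to 72.8%, 98.2% and 76.4% in knockout-labelled cells. Rpa3, the small subunit of replication protein A, went from 75.0%, 74.6% and 94.9% to 48.4%, 34.7% and 48.5% in wild type. Mfap3, a microfibril-associated protein, went from 55.8%, 31.9% and 69.2% to 9.85%, 13.4% and 12.3% in wild type. In knockout-labelled cells Mfap3 had 40.5%, 62.3% and 66.7%, then 43.0%, 14.2% and 18.2%, so that its days overlapped there. The allele-split counts of Mfap3 summed to 0.435 of its whole-gene count.

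In Bmp4, a signalling ligand of early development, 1 library set the size of the shift. Its genome 2 share was 41.7%, 39.8% and 96.5% at day 0 and 93.3%, 97.9% and 87.3% at day 7 in wild type, and 42.4%, 51.2% and 34.9%, then 99.2%, 95.5% and 86.2% in knockout-labelled cells. The shift in wild type was 33.5 points and, without replicate 3 of day 0, 52.1 points. Bmp4 was also counted unevenly: the allele-split counts summed to 0.456 of its whole-gene count, a ratio that lay between 0.8 and 1.2 in 44 of the 63 genes and 84.0% of measured genes. The noncoding 5430405H02Rik had a ratio of 27.3, so that the 2 tables disagree on how many reads it has, and its upward shift of 30.1 points in wild type was 19.6 points without replicate 2 of day 7 and 45.6 points without replicate 3. It overlaps Tgif2 and 2 genes of its own strand.

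**Figure D5:**
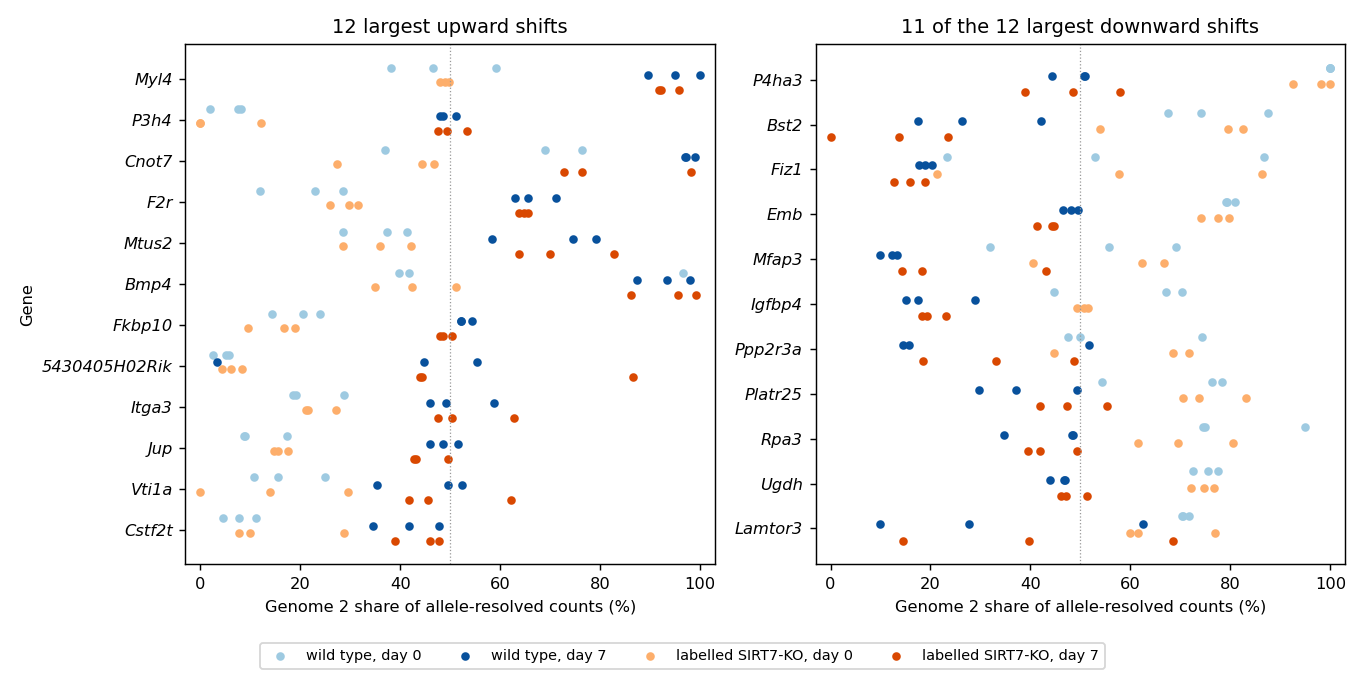
Genome 2 share of allele-resolved counts (x axis, %) in each of the 12 libraries for the 12 genes with the largest upward and 11 of the 12 with the largest downward shift (y axis), with 1 dot per library coloured by group. Day 0 and day 7 dots stand apart in F2r, P3h4, Fkbp10, Emb and Ugdh. They overlap in at least 1 genotype in 5430405H02Rik, Lamtor3, Mfap3, Ppp2r3a and Bmp4.

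Other genes among the largest shifts were Mtus2, Cstf2t, Ppp2r3a, Platr25 and Lamtor3. Mtus2, a microtubule-associated protein, went from 28.6%, 41.3% and 37.3% to 79.2%, 74.5% and 58.4% in wild type. Cstf2t, an intronless copy of the polyadenylation factor gene Cstf2 with which it may share reads, went from 11.2%, 7.72% and 4.47% to 41.7%, 47.8% and 34.5%. Ppp2r3a, a regulatory subunit of protein phosphatase 2A, went from 74.3%, 47.5% and 50% to 15.8%, 51.6% and 14.5%, and its days overlapped. Platr25 went from 76.3%, 78.3% and 54.3% to 29.7%, 49.4% and 37.1%. Lamtor3, of the Ragulator complex at lysosomes, went from 71.7%, 70.6% and 70.3% to 27.6%, 9.87% and 62.5%.

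Several genes with smaller shifts in stretches with both genomes had replicates close together. Cdc42ep4, an effector of the GTPase CDC42, went from 27.5%, 24.2% and 29.4% to 59.0%, 55.1% and 51.7% in wild type and from 26.2%, 27.4% and 21.2% to 51.8%, 52.3% and 56.6% in knockout-labelled cells. Baz2b, a bromodomain protein of chromatin, went from 83.1%, 80.5% and 84.2% to 59.6%, 53.0% and 65.4% and from 83.0%, 81.6% and 85.0% to 53.0%, 63.1% and 55.6%. Zfp771, a zinc finger protein, went from 19.7%, 18.7% and 17.5% to 52.5%, 48.7% and 41.4% and from 22.3%, 26.0% and 26.5% to 46.5%, 46.9% and 43.4%. The days did not overlap in these 3 genes in either genotype. Hsd17b11, a dehydrogenase of lipid droplets, had mean shares of 38.5% and 65% in wild type and 39.3% and 65.7% in knockout-labelled cells, and Zbtb38, a zinc finger protein that binds methylated DNA, 21.6% and 47.4%, then 26.3% and 53.6%. A930004D18Rik, Ifi35, Shfl, Dennd5b and Radil were the other upward genes of these stretches, with mean day 0 shares in wild type from 13.6% to 39.9%, besides Lsm14a. Lsm14a, a P-body protein, had 50.3%, 48.6% and 6.06%, then 55.8%, 90% and 29.4% in wild type, so that its days overlapped. Tmem9b, Hvcn1, Pgam5 and Pxn completed the downward genes there, with mean day 0 shares in wild type from 48.3% to 88.8%. Their replicates were not all close together. The days overlapped in both genotypes in Pgam5, and in knockout-labelled cells in Hvcn1 and Pxn. Tmem9b had 40.9%, 0.629% and 42.4% at day 7 in wild type.

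The other genes in the remaining settings were Tmem184b, Abcb10, Stk38, Rad51d, Efs, Ccl25, Pnrc2, Smim10l1 and Gm7324. Of these, Ccl25 and Pnrc2 moved up and the rest moved down. Tmem184b, Stk38, Rad51d and Gm7324 had overlapping days in at least 1 genotype. Abcb10, a transporter of the inner mitochondrial membrane, went from 59.6%, 64.0% and 62.3% to 43.4%, 34.7% and 38.5% in wild type, and its days were apart in both genotypes. In Stk38, a serine/threonine kinase, 1 library stood far from the others, with 68.6%, 77.9% and 5% at day 0 in wild type.

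Just inside the limit, by the smaller of the 2 shifts, were Gab1, Nid1 and Acad9. Gab1, a docking protein of receptor tyrosine kinases, had 51.3%, 48.1% and 51.5% genome 2 at day 0 and 74.6%, 68.0% and 70.0% at day 7 in wild type. Nid1, the basement membrane protein nidogen, had 47.3%, 46.7% and 49.2%, then 69.7%, 65.1% and 68.6%. These shifts were among the smallest of the 63, but replicates of both genes lay close together. Acad9, an assembly factor of respiratory complex I, went from 78.6% to 48.7% in wild type and from 72.0% to 51.8% in knockout-labelled cells. Just outside were 6720489N17Rik with -19.9 points in wild type, Rpap2 with 19.9 points in knockout-labelled cells and Sbk1 with 19.9 points in wild type.

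None of the 63 genes was on a list of 62 autosomal imprinted genes, of which 30 had enough counts. The median size of the shift of those 30 was 0.401 points in wild type and 0.350 points in knockout-labelled cells. Meg3, Rian, H19, Kcnq1ot1, Mest and Igf2r stayed under 1% genome 2 and Gnas stayed over 99% in every group mean. Blcap, Copg2, Herc3, Mirg, Peg13 and Trappc9 were at 0% in every group. Such genes enter the medians above, and whether imprinting or a stretch read mostly as 1 genome lies behind their shares was not tested. Other listed genes had intermediate shares, as Snrpn, Ndn and Peg10 with 54.7%, 55.6% and 65.6% in wild type at day 0. Zdbf2 came nearest to the limit, from 27.3% to 61.8% in wild type, a shift of 34.5 points, and from 23.5% to 42.8% in knockout-labelled cells, a shift of 19.4 points. No member was on the list of 14 genes that keep imprints and DNA methylation, with 9 measured, or on that of 35 splicing regulators, with 16 measured. The summed level of the imprint keepers was 4982 to 6071 CPM at day 0 and 2296 to 2390 CPM at day 7, and that of the splicing regulators 4764 to 5842 and 5491 to 5874 CPM; their part in the shifts was not tested.

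The comparison of genotypes on each day was not used by the rule, although the demand for the same direction in both limits how far they can differ. Allelic balance was compared between knockout-labelled and wild type libraries with edgeR's quasi-likelihood test on the counts of both genomes, adjusted over 9344 genes. It differed in 0 of the 63 genes at day 0, beside 0.0% of all genes, in 0 at day 7, beside 0.0321%, and in 0 for the difference of the day shifts, beside 0.0%. At an unadjusted p under 0.05, 1 gene (P4ha3) differed at day 0, 2 (Lancl2 and Cnot7) at day 7 and 1 (P4ha3) in the difference of shifts, beside 3.1%, 2.38% and 2.47% of all genes. DESeq2 called 0 of the 60 genes that it gave an adjusted p at day 0, beside 0.182% of all genes. It called 1 of the 63 at day 7, beside 0.15%, and 0 in the difference of shifts, beside 0.0856%. The gene it called was Lancl2, a lanthionine synthetase-like protein, with a day 7 share of 47.4%, 36.8% and 38.8% in wild type and 15.5%, 17.9% and 20.4% in knockout-labelled cells. The genotypes did not overlap in Lancl2 at day 7, with a log2 ratio lower by 1.67 ± 0.38 (SE), but edgeR gave an adjusted p of 0.921, against an unadjusted p of 0.00148.

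The size of the genotype difference over the 63 genes had a median of 4.31 points at day 0 and 3.13 points at day 7, near the 3.58 and 3.03 points of genes with an intermediate share. On each day 12 of the 63 genes differed by 10 points or more, beside 14.2% of genes with an intermediate share at day 0 and 10.98% at day 7. The largest was Dnajb1, an HSP40 chaperone, at day 0, with 58.6%, 68.6% and 96.4% in wild type and 63.5%, 69.7% and 8.91% in knockout-labelled cells, where a single library of each group made the difference. Rbm42, an RNA-binding protein, differed most at day 7, with 49.4%, 3.08% and 14.3% against 52.7%, 66.7% and 23.1%, and its groups overlapped.

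No gene passed the test of level between genotypes. Of the 63 genes, 0 passed an adjusted p of 0.05 between genotypes at day 0 (edgeR, beside 0.13% of all genes) and 0 at day 7 (beside 0.026%). At an unadjusted p under 0.05 there were 17 at day 0, beside 11.9% of all genes, and 7 at day 7, beside 8.18%. DESeq2 called 0 on either day, beside 1.93% of all genes at day 0 and 0.645% at day 7. The lowest adjusted p was 0.227 at day 0, shared by Ifi35, an interferon-induced protein, and Snrnp200, a spliceosomal helicase, and 0.455 at day 7, for Clasp1. Ifi35 had a mean of 4.54 CPM in wild type and 2.90 CPM in knockout-labelled cells at day 0. Transcript usage was compared between genotypes after the other results were known. It passed the test at day 0 in 2 of the 50 genes tested, Cfl1 and Cnot7 (edgeR, adjusted p = 0.0261 and 0.0411), a share near the 4.2% of all genes. With a replicate block 0 of the 50 were called, and neither call held without replicate 1 of knockout-labelled cells or replicate 1 or 3 of wild type. Cnot7 was also lost without replicate 2 of either genotype. At day 7 usage passed in 0 of the 50, beside 0.947%, with 5 at an unadjusted p under 0.05, beside 10.9% of all genes, and in 1 without any 1 of the wild type day 7 libraries.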

How the data were processed

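The data are StringTie estimates of read numbers per gene and per transcript, in whole numbers, once for all reads and once divided into genome 1, genome 2 and unassigned reads; they are the expected counts the authors deposited. The submitters' processing notes name HISAT2 2.1.0, StringTie 1.3.3 and the build GRCm38 (mm10), and the counting of strands is not given in the sources used here. Gene positions came from GENCODE M21, to which 55227 of 55487 gene IDs matched. The members and the gene lists were chosen with earlier results of these data known.

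Genome 2 share is genome 2 over genome 1 plus genome 2 counts. Allelic balance was tested in edgeR 4.0.16 (R 4.3.3) on 2 columns per library (genome 1 and genome 2), with library as a block and the allele term allowed to differ by group; genes needed 20 allele-resolved counts in all 12 libraries. Levels were tested on whole-gene counts (filterByExpr, TMM) and transcript usage with diffSpliceDGE, each in 1 fit of the 12 libraries, with Benjamini-Hochberg adjustment and a threshold of 0.05. DESeq2 1.42.0, other filters and scalings, and leaving out each library were alternatives. For single genes and alleles, CPM divides a count by the library's sum of whole-gene counts times its TMM factor and multiplies by 1000000. Sums over marker and gene lists, and the scaled counts of Sirt7, use the plain sum of whole-gene counts. On simulated data, checked before use, most changed genes were recovered. That check does not give the power of the genotype tests in these libraries, which was not measured. The library SD of a member's share in a group had a median of 6.67 points and reached 39.7 points. The absence of genotype calls therefore does not show that the genotypes were equal. Described in full are the 12 largest shifts in each direction, by the smaller of the genotypes' shifts, genes just inside and outside the limit, and members past a genotype test; any other gene named was picked after its values were seen. The values of 1 member are not reported here. Libraries of a group differed by more than sampling noise, so none was counted as a duplicate.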

Additional observations from a re-analysis of the deposited data

How the results depend on the processing

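The number of genes that met the rule followed its limits: 119 with a minimum of 20 allele-resolved counts per library, 35 with 100, 155 with a shift of 15 points and 28 with 25 points, against 63. It was 68 with pooled shares, 52 of them among the 63, and 63 with allele counts summed over transcripts, the same 63. Leaving out 1 library gave 54 to 80 genes. The genotype tests of allelic balance and level called 0 of the 63 under every alternative run, except that DESeq2 called 1 at day 7 in allelic balance. At day 0 DESeq2 gave an adjusted p for balance in 60 of the 63. The genotype test of transcript usage, whose alternatives were chosen after seeing the data, called 2 at day 0, 3 with at least 10 counts in each of 3 libraries, 0 with a replicate block and 1 to 2 without 1 library; at day 7 it called 0, and 0 to 1 without 1 library. Same-numbered libraries did not deviate together over all genes (correlations of -0.024 to 0.061 in level), so the main fits used no pairing. Single genes can differ from this: at day 0 the shares of Fiz1 and Cfl1 followed the replicate number in both genotypes. A replicate block in the fit left 0 calls among the 63 in each genotype test of balance, level and usage (112 genes in all at day 0 in usage, against 395). With the block, 47 and 45 members were called in level between days and 9 and 7 in transcript usage, against 48, 44, 12 and 11. Without 1 library, usage calls between days were 8 to 13 in wild type and 6 to 11 in knockout-labelled cells. The cause was not tested. For the 12 largest shifts in each direction and the 3 just inside the limit, 432 shifts were computed under alternatives. All lay within 1 SD of the main value, by the larger SD of the 2 days. Leaving out 1 of 3 libraries cannot move a mean by that much, so those values do not measure stability. Only the 54 values with pooled shares and the 54 with counts summed over transcripts could have lain further away. Without 1 library, 16 of the 63 genes had a shift moved by over 1.5 times; among the 12 largest in each direction these were Bmp4, 5430405H02Rik, Fiz1 (-19.1 points in wild type without replicate 3 of day 0, -23.6 in knockout-labelled cells likewise) and Lamtor3 (-12.0 points in knockout-labelled cells without replicate 1 of day 7, -39.0 without replicate 3). The others were Lsm14a, Dnajb1, Tmem9b, Rbm42, Tmem184b, Smim10l1, Stk38, Pgam5, Rad51d, Pxn, Clasp1 and Cfl1. Pooling rare transcripts left 54 genes with the larger part within transcripts, against 53, and 3 with the larger part from makeup, against 5. Depth limits the precision of the shares in the 28 genes with under 100 allele-resolved counts in some library.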
